A study of Mus musculus with 2 samples.

Results

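The vacuolar proton pump and the lysosome genes described here were taken by symbol: every gene whose symbol starts with Atp6v, other than Atp6v0d2, and a list of 25 genes for lysosomal enzymes, cofactors, membrane proteins and their regulator. The rule gave 47 genes, of which 45 had a value, out of 22180 named genes on the array. Atp6v0c, which encodes the proteolipid of the pump's rotating ring, had no probe set in the platform's gene table, and Glb1, which encodes beta-galactosidase, shared its probe set with another gene. No value is given for either. Atp6v0d2 was left out of the rule with its value known (log2 signal 7.37 in wildtype and 2.97 on the other array), and the lists were drawn up with earlier results of these arrays in view.

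RAW264.7 is an established mouse macrophage line. One culture was wildtype and the other is labelled HuR-deficient. Both had received poly(I:C) HMW, a long synthetic double-stranded RNA, by transfection with lipofectamine 2000. The labels give 1 mg/ml and 8 hours, and total RNA of each culture went onto 1 Affymetrix array. HuR is the RNA-binding protein encoded by Elavl1. A sample title calls the HuR-deficient culture HuR-KO. The labels do not say how these cells were made or whether they are 1 clone, and no unstimulated culture was analysed here. The comparison asks how gene expression differs between the 2 genotypes after the same stimulus. Values are log2 signals, and every difference is the array labelled HuR-deficient minus the wildtype array, so a difference of -1 is 2-fold lower. With 1 array per group there is no replicate spread and no test, and a difference between genotypes cannot be told apart from one between 2 cultures or 2 arrays.

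Lysosomes digest material taken up from outside or delivered from within the cell, and macrophages rely on them to clear particles and present antigen. The vacuolar proton pump acidifies them: its cytosolic V1 sector splits ATP, and its membrane V0 sector carries the protons across. Soluble hydrolases such as the cathepsins work in the acid interior, while heavily glycosylated membrane proteins line the boundary. Many of these genes carry a palindromic element in their promoters that is bound by TFEB and its relatives of the MiT family, which raise lysosomal gene expression in concert.

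The promoters of 6 members are shown because they include lower genes with and without that element, and Atp6v0b, which holds it and stood near 0. Each sequence is the 250 bases before a RefSeq transcript start on assembly GRCm38.p6, read 5′ to 3′ on the gene's strand. Capitals mark CACGTG, its longer form TCACGTG read on either strand, and TCATGTG read on either strand, a related element known as the M-box core. Atp6v1a (chr16:44139260-44139509, minus strand), Ctsd (chr7:142387828-142388077, minus strand) and Lamp1 (chr8:13158911-13159160, plus strand) hold the longer form and were lower on the array labelled HuR-deficient. Atp6v0b (chr4:117887330-117887579, minus strand) holds it and stood near 0. Ctsc (chr7:88277835-88278084, plus strand) and Gpnmb (chr6:49036268-49036517, plus strand) were lower and hold none of the 3 in this window.
Atp6v1a: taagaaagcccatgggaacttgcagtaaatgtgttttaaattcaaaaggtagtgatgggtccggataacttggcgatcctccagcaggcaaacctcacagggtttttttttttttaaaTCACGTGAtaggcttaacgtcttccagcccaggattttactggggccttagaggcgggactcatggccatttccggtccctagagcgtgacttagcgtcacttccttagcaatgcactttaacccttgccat
Ctsd: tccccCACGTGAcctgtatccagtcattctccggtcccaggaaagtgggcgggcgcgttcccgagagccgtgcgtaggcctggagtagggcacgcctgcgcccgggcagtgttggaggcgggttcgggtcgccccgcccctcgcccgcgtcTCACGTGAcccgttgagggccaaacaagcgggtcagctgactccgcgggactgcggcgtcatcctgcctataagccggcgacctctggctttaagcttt
Lamp1: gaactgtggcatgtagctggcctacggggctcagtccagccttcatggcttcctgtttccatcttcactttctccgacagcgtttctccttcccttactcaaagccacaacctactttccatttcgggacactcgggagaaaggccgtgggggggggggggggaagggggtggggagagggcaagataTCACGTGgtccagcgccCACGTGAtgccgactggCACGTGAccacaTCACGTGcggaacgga
Atp6v0b: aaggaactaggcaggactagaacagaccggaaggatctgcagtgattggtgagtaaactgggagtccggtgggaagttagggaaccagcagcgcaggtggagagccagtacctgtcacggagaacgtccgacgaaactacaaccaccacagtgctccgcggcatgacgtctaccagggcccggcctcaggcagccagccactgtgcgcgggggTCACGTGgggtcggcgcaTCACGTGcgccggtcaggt
Ctsc: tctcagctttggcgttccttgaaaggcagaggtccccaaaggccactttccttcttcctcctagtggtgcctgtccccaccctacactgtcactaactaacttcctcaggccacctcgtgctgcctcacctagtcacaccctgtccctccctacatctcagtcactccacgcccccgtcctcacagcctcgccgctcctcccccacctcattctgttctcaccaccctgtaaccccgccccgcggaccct
Gpnmb: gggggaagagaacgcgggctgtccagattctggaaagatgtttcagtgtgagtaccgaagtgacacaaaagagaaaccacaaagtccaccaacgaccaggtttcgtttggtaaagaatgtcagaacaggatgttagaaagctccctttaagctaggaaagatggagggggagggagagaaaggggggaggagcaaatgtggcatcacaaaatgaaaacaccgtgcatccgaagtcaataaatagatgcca

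Most pump and lysosome genes had a lower signal on the array labelled HuR-deficient, by small amounts. Of the 45 measured members, 35 (77.8%) were below 0, against 46.3% of all 22180 named genes, and 10 were above, against 49.2%. The median difference of the members was -0.21, and that of all named genes was 0. The middle 50% of the members lay between -0.38 and -0.04, and that of all named genes between -0.21 and 0.24. The plot of cumulative shares shows the members' curve to the left of that of all genes over the middle of its range.

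**Figure D1:**
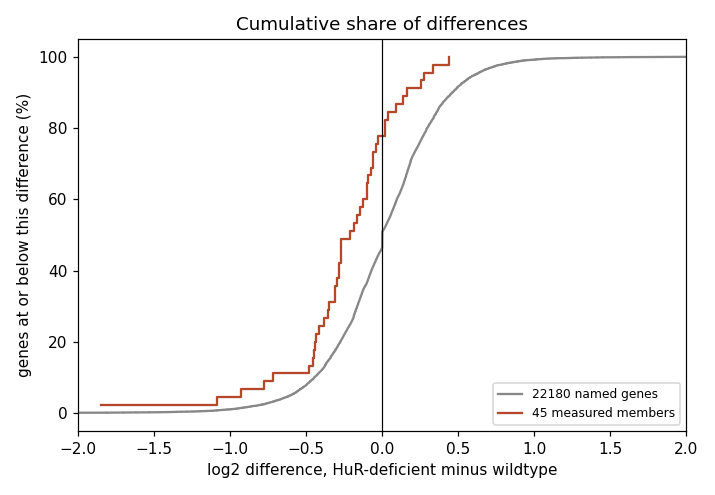
Cumulative share of genes (%, vertical) at or below each log2 difference, HuR-deficient minus wildtype (horizontal), for the 45 measured members and for all 22180 named genes. At a difference of 0 the members' curve has reached 77.8%, and the axis is limited to 2 on each side.

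Few members differed by much. Of the 45, 42 reached the signal floor of 4.38, the median of all named values, on at least 1 array. Of these 42, 35 were below 0 and 7 above. Of the 11905 genes that passed the same filter, 5783 (48.6%) were below 0 and 5871 above. Among these 42, 2 were at least 2-fold lower, against 1.11% of the 11905 genes that passed the same filter, and none was at least 2-fold higher, against 0.882%. The 2 were Gpnmb and Ctsb. At 1.5-fold, 5 members were lower, against 5.32% of the filtered genes, and none was higher, against 5.44%. These were Gpnmb, Ctsb, Atp6v1a, Ctsc and Atp6v1h, all above the floor on both arrays. The same 5 are counted with no filter, or 11.1% of all measured members against 5.36% of all named genes, and again none was higher, against 5.61%. The 3 members below the floor on both arrays were Atp6v1c2, Atp6v1g3 and Atp6v0a4.

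**Figure D2:**
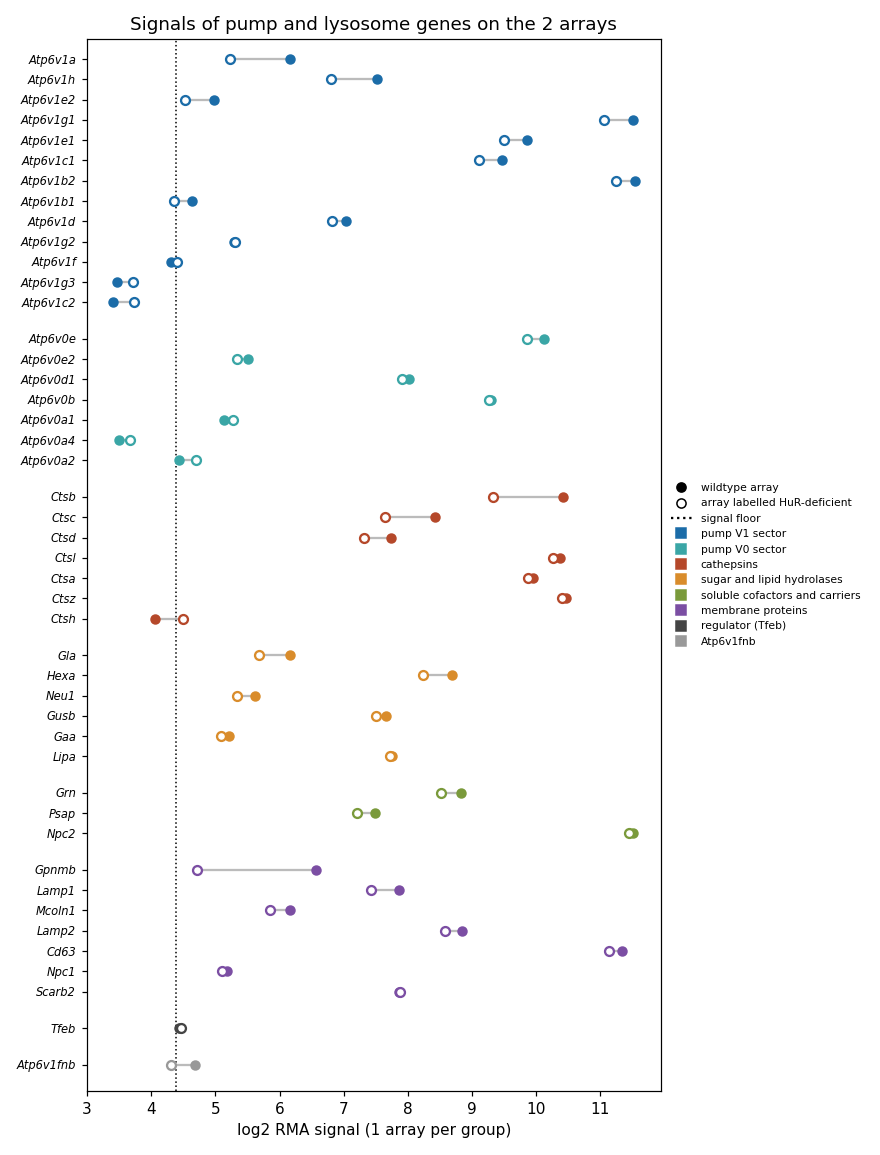
Log2 signal (horizontal) of each measured member on the wildtype array (filled) and on the array labelled HuR-deficient (open), grouped by role, 1 array per group, with the signal floor of 4.38 as a dotted line. The open point lies to the left of the filled one for 35 of the 45 genes, and the longest distances are those of Gpnmb and Ctsb.

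In the V1 sector, 9 of 13 measured genes were below 0, with a median of -0.30. Atp6v1a encodes subunit A, the catalytic subunit that binds and splits ATP. Its signal was 6.16 in wildtype and 5.23 in the sample labelled HuR-deficient, which is 1.90-fold lower (difference -0.93). Of the 11905 filtered genes, 178 stood as low or lower. Atp6v1h, the regulatory subunit H that bridges the sectors, read 7.52 and 6.80, a difference of -0.72 or 1.65-fold lower. It was the other V1 gene past 1.5-fold, and 3.05% of the filtered genes stood as low or lower.

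The remaining V1 genes differed by less than 1.5-fold. Atp6v1b2 encodes the nucleotide-binding B subunit of macrophages and many other cells, and its signal was 11.54 against 11.24, a difference of -0.30. Its second probe set differed by -0.24. The stalk genes stood on the same side: Atp6v1g1 read 11.51 and 11.06 (-0.45), and its other 2 probe sets differed by -0.45 and -0.32. Atp6v1e1 read 9.85 and 9.49 (-0.36), and Atp6v1c1, whose subunit C is released when the sectors come apart, read 9.46 and 9.11 (-0.35). The rotor gene Atp6v1d stood at -0.21 (7.03 against 6.82). Atp6v1f, another rotor gene, was the exception at 0.09, with signals of 4.31 and 4.40 that lay on either side of the floor. These 8 genes make the V1 subunits used in most cells, and 7 of the 8 were below 0 (median -0.36).

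The other 5 V1 genes encode isoforms known mainly from kidney, testis or brain, and they had no common direction: 2 were below 0 and 3 above, with a median of 0.02. Atp6v1e2 read 4.98 and 4.53 (-0.46), Atp6v1b1 4.64 and 4.36 (-0.28) and Atp6v1g2 5.30 and 5.31 (0.02). Atp6v1c2 (0.34) and Atp6v1g3 (0.26) were below the floor on both arrays. This division of the V1 genes was made after their values were seen. Probe sequences were not used here, so whether a probe set also reads a related isoform was not tested.

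The 7 measured V0 members, which leave out Atp6v0d2 and Tcirg1, lay closer to 0 than the V1 genes. Of these 7, 4 were below 0 and 3 above, with a median of -0.04 and none past 1.5-fold. Atp6v0e, a small membrane subunit, was the lowest of the 7 at 10.13 against 9.86, a difference of -0.27. Its relative Atp6v0e2 read 5.50 and 5.34 (-0.17). Atp6v0d1 encodes the widely used form of the subunit that couples the rotor to the ring, and it read 8.01 and 7.91 (-0.10). That is the paralog of Atp6v0d2, whose signal differed by -4.40. The ring gene Atp6v0b stood at -0.04 (9.30 against 9.26). Of the genes for the large proton-channel subunit, the 3 among the members were above 0, while Tcirg1, a further one that the symbol rule does not take, read 5.67 and 5.50 (-0.17). Atp6v0a1 read 5.14 and 5.28 (0.14), Atp6v0a2 4.43 and 4.71 (0.28), and Atp6v0a4, below the floor on both arrays, 3.50 and 3.66 (0.16). The difference between the sectors cannot be tested with 1 array per group.

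**Figure D3:**
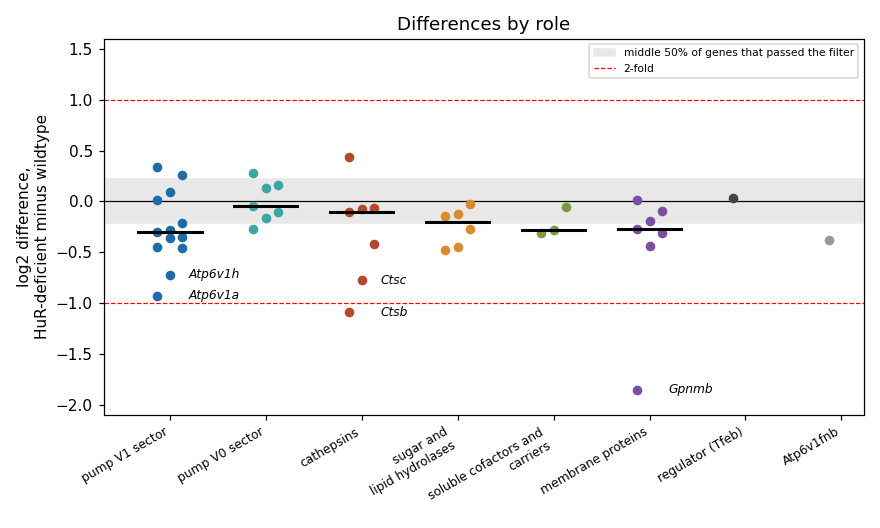
Log2 difference, HuR-deficient minus wildtype (vertical), of each measured member by role, with the group median as a bar, 2-fold as dashed lines and the middle 50% of the 11905 filtered genes as a grey band (1 array per group). Medians run from -0.30 for V1 and -0.28 for the soluble cofactors to -0.04 for V0, and the 5 named genes are those at least 1.5-fold lower.

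The symbol rule also took Atp6v1fnb, a neighbour of Atp6v1f that is not a pump subunit. It read 4.69 and 4.31, a difference of -0.38, and its lower signal was below the floor.

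Among the lysosomal proteases, Ctsb and Ctsc stood apart from the rest. Ctsb encodes cathepsin B, a cysteine protease, and its signal was 10.42 in wildtype and 9.33 in the sample labelled HuR-deficient, which is 2.13-fold lower (difference -1.09). Only 0.798% of the filtered genes stood as low or lower. Bright signals spread less: of 1090 genes with a mean signal of at least 9, a limit set after the values were seen, 6 (0.550%) were at least 2-fold lower, and Ctsb was one of them. Ctsc encodes cathepsin C, which activates the serine proteases of granules, and it read 8.42 and 7.65, a difference of -0.78 or 1.71-fold lower. Cathepsin D, the aspartic protease encoded by Ctsd, read 7.73 and 7.31 (-0.42).

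The other 4 of these genes did not share that size of difference. Ctsl, which encodes the cysteine protease cathepsin L, read 10.37 and 10.27 (-0.10). Ctsa, whose serine carboxypeptidase also protects beta-galactosidase and neuraminidase 1, read 9.94 and 9.87 (-0.07), and the carboxypeptidase gene Ctsz 10.47 and 10.41 (-0.06). Ctsh, an aminopeptidase gene, was the member with the largest positive difference, at 4.05 against 4.49 (0.44), and its wildtype signal was below the floor. Over the 7 genes the median was -0.10, with 6 below 0.

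The 6 measured genes for sugar and lipid hydrolases were all below 0, none by 1.5-fold, with a median of -0.21. Gla, which encodes alpha-galactosidase A, read 6.16 and 5.68 (-0.48). Hexa, the alpha subunit gene of beta-hexosaminidase, which degrades GM2 ganglioside, read 8.68 and 8.24 (-0.44). The sialidase gene Neu1 read 5.61 and 5.34 (-0.27). Smaller differences were seen for Gusb, the beta-glucuronidase gene (7.65 against 7.51, -0.14), and Gaa, the acid alpha-glucosidase gene that breaks down glycogen (5.21 against 5.08, -0.13). Lipa, the lysosomal acid lipase gene of cholesteryl ester breakdown, was nearly level at 7.75 and 7.73 (-0.03).

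Soluble proteins that assist these enzymes gave 3 values below 0. Grn encodes progranulin, a secreted and lysosomal glycoprotein, and read 8.83 and 8.52 (-0.31). Psap, the precursor gene of the saposins that present lipids to hydrolases, read 7.48 and 7.20 (-0.28). Npc2, whose product hands cholesterol to NPC1, read 11.51 and 11.45 (-0.06).

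Of the 7 membrane protein genes, 6 were below 0, with a median of -0.27. Gpnmb, a glycoprotein gene of macrophages and osteoclasts, was the lowest of all members, with 6.57 in wildtype and 4.72 on the array labelled HuR-deficient. This was 3.61-fold lower (difference -1.85), both signals were above the floor, and 0.185% of the filtered genes stood as low or lower. Apart from Gpnmb, the group stayed within 1.5-fold. The structural membrane proteins were lower together: Lamp1 read 7.86 and 7.43 (-0.44) and Lamp2 8.85 and 8.57 (-0.27). The calcium channel gene Mcoln1 read 6.16 and 5.85 (-0.31), and the tetraspanin gene Cd63 11.33 and 11.14 (-0.19).

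The last 2 membrane protein genes were close to level. Npc1, which exports cholesterol from the lysosome, read 5.19 and 5.10 (-0.09), while its second probe set, with a lower signal, differed by 0.15. Scarb2, the receptor gene that carries beta-glucocerebrosidase to the lysosome, read 7.86 and 7.88 (0.02). The regulator gene Tfeb read 4.43 and 4.47, a difference of 0.04 just above the floor, so its own mRNA signal did not distinguish the arrays.

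**Figure D4:**
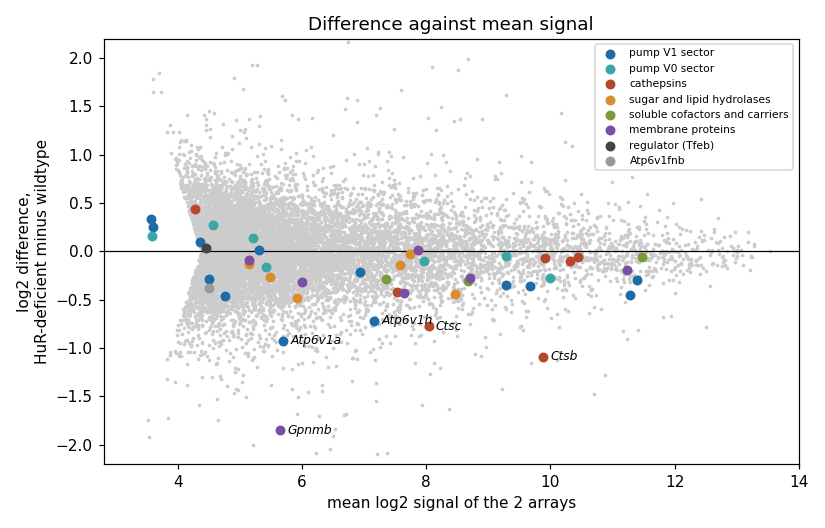
Log2 difference, HuR-deficient minus wildtype (vertical), against the mean log2 signal of the 2 arrays (horizontal), for the members in colour and the 11905 filtered genes in grey (1 array per group). The 20 filtered genes beyond 2.2 on either side are outside the plot, and the 12 members with a mean of at least 9 all lie below 0.

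The members' position was also seen among bright probe sets. All 12 members with a mean signal of at least 9 were below 0, against 53.2% of the 1090 genes at that level, and their median was -0.23 against -0.01. Of these 12, Ctsb was the one past 1.5-fold.

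The element in the promoters was common among the members. A window of 300 bases, 250 before and 50 after a RefSeq transcript start, was at hand for 39 of the 47 genes. TCACGTG on either strand, which contains CACGTG, was found in 11 of the 39 (28.2%), against 4.29% of 27025 genes with such a window and 6.61% of the 9329 filtered genes with one. CACGTG alone was found in 12 (30.8%), Ctsl being the addition, against 8.09% of all genes and 11.3% of the filtered ones. TCATGTG was found in 5 (12.8%), against 4.31% and 2.72%. The 11 with the longer form were Atp6v1a, Atp6v0b, Atp6v0d1, Atp6v0e, Ctsa, Ctsd, Gaa, Gla, Glb1, Lamp1 and Mcoln1. Lamp1 held 4 copies within its last 62 bases before the start.

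The 10 measured genes with TCACGTG were all below 0, with a median of -0.29. Of the 27 measured genes with a window and without it, 19 were below 0, with a median of -0.17. The 2 sets also differed in signal. All 10 with it reached the floor, while the 27 hold the 3 members below the floor on both arrays, each above 0. They also hold all 5 V1 isoform genes of few tissues. The range among the 10 was wide, from Atp6v1a at -0.93 to Atp6v0b at -0.04, although the 250 bases of Atp6v0b printed above hold 2 copies and those of Atp6v1a 1. Ctsc and Gpnmb, both past 1.5-fold, had none, and Ctsb and Atp6v1h had no window in the table. These are matches of letters, not measured binding, and the 2 sets were not tested against each other.

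Of other genes of the pathway, 132 were measured in 5 lists: 79 were below 0, 50 above and 3 at 0. Their median of -0.10 was nearer to 0 than the members' -0.21, but their lower end was alike. The middle 50% of them lay between -0.39 and 0.14, against -0.38 and -0.04 for the members. Of the 109 that reached the floor on at least 1 array, 11 were lower by 1.5-fold or more, against 5.32% of the filtered genes. Of these 11, 3 were lower by 2-fold or more, against 1.11%. None of the 109 was higher by 1.5-fold, against 5.44%. With no filter, 9.09% of the 132 were at least 1.5-fold lower, against 5.36% of all named genes. For 4 of the 11, Tfec, Mcoln2, Igf2r and Fnip2, the value on the array labelled HuR-deficient was below the floor, so the sizes of those differences are uncertain. In each list below, the genes called highest and lowest are so among those that reached the floor. The accessory and assembly genes of the pump had a median of 0.04, with 8 of 18 below 0 and none past 1.5-fold. Among them Atp6ap2, the accessory subunit also known as the prorenin receptor, differed by -0.39 and Atp6ap1 by -0.26. Tcirg1, given above, encodes the osteoclast form of the large V0 subunit. The assembly factor gene Rogdi stood lowest at -0.48, and Dmxl1 (0.38) and Tldc2 (0.55) highest. Atp6ap1l, below the floor on both arrays, stood at 0.52.

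Of 37 other hydrolase genes, 21 were below 0, with a median of -0.12. Ggh, the gamma-glutamyl hydrolase gene that acts on folates, read 7.75 and 6.80 (-0.95), and Acp5, the tartrate-resistant acid phosphatase gene of osteoclasts and macrophages, read 8.31 and 7.44 (-0.87). With the arylsulfatase gene Arsb (-0.64), named after its value was seen, they were the 3 filtered genes of the list past 1.5-fold lower. Ctss, the cathepsin gene of antigen processing, differed by -0.24. Idua and Hgsnat, both of heparan sulfate breakdown, were highest at 0.51 each, with Arsg, below the floor on both arrays, at 0.61.

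Of 34 other membrane protein genes, 23 were below 0, with a median of -0.15. Mcoln2, a relative of Mcoln1, read 5.58 and 4.35 (-1.22), the second value below the floor, and Slc11a1, the metal ion exporter gene of macrophage phagosomes known as Nramp1, read 6.20 and 5.16 (-1.04). These were the 2 past 2-fold, and Mfsd1 (-0.59), named after its value was seen, was also past 1.5-fold. Cd68, a macrophage relative of the LAMP proteins, differed by -0.20, and Abcb9 (0.49) and Slc15a3 (0.54) stood highest.

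Genes that sort enzymes to the lysosome had a median of -0.09, with 12 of 22 below 0. Gga2, an adaptor gene of the mannose 6-phosphate receptor route, read 8.18 and 7.31 (-0.87), and the adaptor subunit gene Ap3s1 stood at -0.67. Igf2r, which encodes the larger mannose 6-phosphate receptor and was named after its value was seen, differed by -0.62, while Vps18 (0.51) and Sort1 (0.57) were highest. Gga3, below the floor on both arrays, stood at 0.76. In the list of nutrient sensing and MiT family genes, 15 of 21 were below 0, with a median of -0.14. Tfec, the MiT family gene of macrophages, read 6.21 and 4.21, the second value below the floor. Its relatives Tfe3 (-0.09) and Mitf (-0.03) were close to level, as was Tfeb. Fnip2, a partner of folliculin, stood at -0.80, and Lamtor4 (0.26) and Mtor (0.44) highest, with Rragd, below the floor on both arrays, at 0.29.

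**Figure D5:**
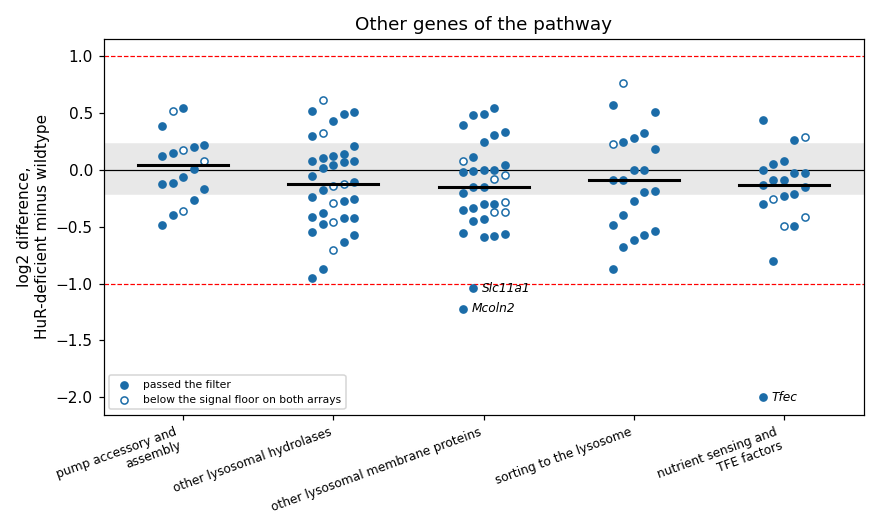
Log2 difference, HuR-deficient minus wildtype (vertical), of other pathway genes in 5 lists, with medians as bars, 2-fold as dashed lines and the middle 50% of the 11905 filtered genes in grey (open points are below the signal floor on both arrays, 1 array per group). Medians lie between -0.15 and 0.04, and Tfec, Mcoln2 and Slc11a1 are past 2-fold.

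The targeted gene and the cell type were looked at for the whole arrays. Elavl1 read 7.68 in wildtype and 7.75 on the array labelled HuR-deficient, so its signal does not check the genotype label. Macrophage markers were present on both arrays, with 12 of 13 above the floor and a summed signal, on the log2 scale, of 14.52 and 14.51. They were not level gene by gene: Adgre1, the F4/80 gene, read 4.94 and 6.51 (1.57) and Aif1 7.86 and 9.22 (1.37), the 2 markers past 2-fold. Markers of other cell types reached the floor in part: 4 of 12 for T and NK cells, 2 of 7 for B cells, 6 of 16 for fibroblasts, epithelium and endothelium, and 2 of 11 for neutrophils and mast cells. Their summed signals were between 6.95 and 8.42 in wildtype and between 6.98 and 8.31 on the other array. The B cell list had the highest sum on both arrays. In it Blnk read 7.89 and 7.74, and the next gene, Pax5, 4.91 and 5.13. Any part of other cell types in the members' differences was not tested.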

How the data were processed

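Biotinylated RNA from each of 2 cultures was read on an Affymetrix array. The deposited values are log2 signals. RMA was the authors' method, per the submitters' processing notes, with no version or build named in the labels, and the log2 scale was read from the values. RMA gives the arrays near-equal distributions, which hides a shift of all mRNA at once. Of 41345 probe sets, 23521 had 1 gene symbol, and these were used. For genes with several, the probe set with the highest mean signal stood for the gene. A gene passed the filter when its higher value reached 4.38. The members and lists were chosen with earlier results of these data known. All members were named. Of the 5 other lists, up to 2 genes at each end that passed the filter were named, with Tcirg1, Atp6ap1, Atp6ap2, Cd68, Ctss, Tfe3 and Mitf, and Elavl1 as the targeted gene. Arsb, Mfsd1 and Igf2r were added after their values were seen. Atp6ap1l, Arsg, Gga3 and Rragd, which did not pass the filter, were also named. Calls are at 2-fold or 1.5-fold, with no p-value. The number of arrays limits the precision. How often such calls arise between cultures of the same genotype was not tested. Promoter windows are from RefSeq (GRCm38.p6). Scripts ran under Python 3.11.15 with pandas 2.3.3, numpy 2.4.6, matplotlib 3.10.9 and statsmodels 0.14.6 (loess span 0.3).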

Additional observations from a re-analysis of the deposited data

How the results depend on the processing

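The counts of members at 2-fold and 1.5-fold, of members on each side of 0, and the median difference were computed again with the median of all genes subtracted, with the columns quantile-normalised again, with a loess trend on signal removed and with probe sets averaged. None of these moved a count by over 1.5 times or the median by 0.1, and neither did other filters, Atp6v0d2 added, the mean in place of the median or, chosen after seeing the data, Atp6v1fnb left out. At 3-fold in place of 2-fold, 1 member was lower, Gpnmb. Of the 45 differences, Lipa changed sign after quantile normalisation (0.0072) and Npc1 when its probe sets were averaged (0.03), both near 0. No paired analysis was possible because each group has 1 array. Members under the floor were not shown to lie above background.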

Other observations

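Autophagy delivers cargo to lysosomes, and its genes were set beside the members with 4 lists written after the members' values were seen. Of 47 measured genes, 27 were below 0, 18 above and 2 at 0, with a median of -0.04. Sqstm1, which encodes the cargo receptor p62, was the gene at least 1.5-fold lower (8.47 against 7.84, a difference of -0.63). The LC3 family lay on both sides of 0. Map1lc3b read 8.03 and 7.45 (-0.58) and Gabarap 10.89 and 10.43 (-0.46), and Gabarapl2 differed by -0.14. Gabarapl1 read 6.19 and 6.83 (0.64) and Map1lc3a, its wildtype signal below the floor, 4.36 and 4.88 (0.52). Atg4d, a protease gene of the same conjugation pathway, stood at 0.65, and with Gabarapl1 it was past 1.5-fold higher. Of the 47 genes, 2.13% were at least 1.5-fold lower and 4.26% higher. Both shares were below those of all named genes, 5.36% and 5.61%. Of the genes for the lipidation enzymes and their partners, Atg3 differed by -0.50, Atg5 by -0.36, Atg7 by -0.35, Atg12 by -0.30, Atg16l1 by -0.16, Atg10 by -0.11 and Atg16l2 by 0.20. Genes for the fusion of autophagosomes with lysosomes had a median of 0.10, with 3 of 8 below 0, from Epg5 at -0.15 to Rubcn, a negative regulator of that step, at 0.51.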
